A study of Mus musculus with 24 samples.

Results

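The T cell receptor variable segments are the V genes of the alpha, beta, gamma and delta receptor chains. They were taken from a bulk RNA-seq series of intestinal innate lymphoid cells by gene biotype, as all rows annotated TR_V_gene. The rule gave 144 of the 55487 genes in the count table, of which 110 were alpha segments (Trav), 22 beta (Trbv), 7 gamma (Trgv) and 5 delta (Trdv). The 24 libraries came from 4 populations sorted by flow cytometry out of lamina propria, from the small intestine of mice aged 8 to 12 weeks. The populations were group 1 innate lymphoid cells (ILC1) and 3 subsets of group 3 innate lymphoid cells, labelled nkp46, ccr6 and DN. The labels do not spell out DN. They are written here as NKp46, CCR6 and DN. Each population came in 2 genotypes with 3 libraries each. The double knockout (DKO) carried floxed alleles of both REV-ERB nuclear receptor genes, Nr1d1 and Nr1d2, with Vav1-Cre, whose promoter is active throughout the blood cell lineages and not in innate lymphoid cells alone. The wild type (WT) animals were littermates with the same floxed alleles, and Cre is not given for them. Whether replicate libraries were made from different mice is not stated, and the p-values refer to the variation among the libraries themselves, which may be technical.

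A T cell receptor chain is built by joining a V segment to a joining segment, for beta and delta chains with a diversity segment between them, and the joined exon is spliced to a constant gene. Alpha pairs with beta, and gamma with delta. Innate lymphoid cells are defined by the lack of a rearranged antigen receptor, but V segments can also be transcribed from unrearranged chromosomes, and a count per gene does not tell a joined transcript from an unjoined one. Trdv4 encodes the V delta 1 chain, which pairs with the product of Trgv6 in interleukin 17 producing gamma delta T cells of mucosal tissues and with the product of Trgv5 in gamma delta T cells of the epidermis. Trgv7 is the main gamma segment of gut intraepithelial gamma delta T cells. Trav11 joined to Traj18 makes the invariant natural killer T cell receptor, and Trav1 joined to Traj33 makes the mucosal-associated invariant T cell receptor.

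The segments on which the results turn are printed 5′ to 3′ on the coding strand, in lower case, with the TGT codon of the conserved cysteine in capitals. This codon opens the third complementarity determining region, and the bases after it are those that joining trims or keeps. The first set holds the V exons, to at most their last 300 bases, of the delta and gamma segments with the largest differences among groups or the highest levels. Trdv4 lies at chr14:54075217-54075515, Trdv2-2 at chr14:53961304-53961602, Trgv5 at chr13:19192428-19192725 and Trgv6 at chr13:19190630-19190929, each on the plus strand of GRCm38 (mm10). The sequences and coordinates are from the GENCODE mouse release 21 transcripts.
Trdv4: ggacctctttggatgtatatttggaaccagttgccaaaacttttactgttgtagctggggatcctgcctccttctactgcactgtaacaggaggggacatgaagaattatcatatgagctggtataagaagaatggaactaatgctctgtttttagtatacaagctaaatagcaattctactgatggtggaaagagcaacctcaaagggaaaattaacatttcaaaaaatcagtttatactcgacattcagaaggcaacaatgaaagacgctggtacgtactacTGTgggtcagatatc
Trdv2-2: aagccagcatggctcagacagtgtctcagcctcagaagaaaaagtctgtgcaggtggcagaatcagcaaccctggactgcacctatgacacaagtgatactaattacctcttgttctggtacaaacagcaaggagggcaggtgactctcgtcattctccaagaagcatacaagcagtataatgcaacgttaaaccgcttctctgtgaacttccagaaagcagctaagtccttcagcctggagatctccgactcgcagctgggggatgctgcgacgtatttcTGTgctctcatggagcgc
Trgv5: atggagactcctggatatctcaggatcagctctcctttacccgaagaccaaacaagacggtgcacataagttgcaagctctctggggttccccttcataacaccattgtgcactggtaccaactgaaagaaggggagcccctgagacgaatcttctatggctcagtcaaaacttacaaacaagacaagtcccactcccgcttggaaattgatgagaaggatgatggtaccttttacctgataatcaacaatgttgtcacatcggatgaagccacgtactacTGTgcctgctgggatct
Trgv6: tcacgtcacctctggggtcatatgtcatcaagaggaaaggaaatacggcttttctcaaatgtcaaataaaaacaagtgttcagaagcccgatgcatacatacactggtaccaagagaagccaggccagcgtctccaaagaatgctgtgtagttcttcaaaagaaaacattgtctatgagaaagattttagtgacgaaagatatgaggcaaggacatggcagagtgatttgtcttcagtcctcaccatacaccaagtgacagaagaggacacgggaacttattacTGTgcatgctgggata

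The second set gives the last 60 bases of other segments named below, so that their ends can be compared. Trgv1 (chr13:19340395-19340454, plus strand) and Trgv2 (chr13:19336573-19336632, minus strand) were 95.4% identical over their V exons, which limits how well short reads separate them. Trgv4 (chr13:19185447-19185506), Trgv7 (chr13:19178433-19178492), Trdv1 (chr14:53882158-53882217), Trbv13-2 (chr6:41121773-41121832) and Trav15-1-dv6-1 (chr14:53560188-53560247) are on the plus strand.
Trgv1: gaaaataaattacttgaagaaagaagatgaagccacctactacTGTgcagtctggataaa
Trgv2: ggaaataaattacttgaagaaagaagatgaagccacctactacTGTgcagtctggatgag
Trgv4: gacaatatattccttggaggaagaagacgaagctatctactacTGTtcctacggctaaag
Trgv7: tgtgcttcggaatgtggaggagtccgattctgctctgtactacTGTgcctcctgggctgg
Trdv1: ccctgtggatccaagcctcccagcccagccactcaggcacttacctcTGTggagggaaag
Trbv13-2: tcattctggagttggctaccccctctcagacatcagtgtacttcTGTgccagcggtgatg
Trav15-1-dv6-1: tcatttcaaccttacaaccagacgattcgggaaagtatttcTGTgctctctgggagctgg

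How far a count belongs to 1 segment differed by locus. Each segment was scanned for windows of 50 bases found in no other gene of the release. All windows were unique to the segment in Trdv4, Trdv1, Trgv5, Trgv6, Trgv7, Trav1 and Trav17, and in 17 of the 22 beta segments. The share was 75.4% in Trgv1, 93.0% in Trgv2, 80.6% in Trgv3 and 98.1% in Trgv4. It was 43.4% in Trdv2-1 and 47.4% in Trdv2-2, which were 97.7% identical to each other, so the split between this pair is uncertain. In the alpha locus, 63 of the 110 segments are duplicated copies whose names carry d or n, 68 had under 50% unique windows and 39 had none, and single alpha values are uncertain for these. Trdv5 overlaps the delta constant gene Trdc on the opposite strand, and Trgv4 and Trdv2-2 overlap antisense genes. The strand setting of the counting is not given in the sources used here, so reads of such partners cannot be told apart.

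Library totals ranged from 12763228 to 84395154 counts, and the members together took between 0.00535% and 0.0408% of a library. Of the 144 segments, 135 had a count in some library and 9 had none. The filter on low counts passed 77 segments (46 Trav, 19 Trbv, 7 Trgv and 5 Trdv). The 67 others never exceeded 60 counts in a library and were not tested. A segment could pass the filter through its highest group alone. Ncr1, which encodes NKp46, ranged from 735 to 2029 CPM (counts in 1e6, on library sizes scaled by the trimmed mean of M-values) in WT ILC1 and NKp46 libraries, from 46.4 to 63.1 in WT DN and did not exceed 12.1 in WT CCR6. Ccr6 stayed at or below 41.8 CPM outside the CCR6 populations of the WT. Replicate 2 of WT ILC1 was the shallowest library and had a summed level of 655 CPM over a list of myeloid genes, against 228 and 200 in replicates 1 and 3. Of the 12 myeloid genes, 4 were higher in WT ILC1 than in WT NKp46, 4 than in WT CCR6 and 6 than in WT DN, and 0 were lower. Their part in the ILC1 differences was not tested. Nr1d1 read higher in the DKO in all 4 populations, with log2 differences of 2.34, 0.82, 1.39 and 1.96 in ILC1, NKp46, CCR6 and DN, so counts over the whole gene do not check the deletion. B cell receptor V segments summed to between 5.09 and 428 CPM, varying within groups.

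In the WT, the DN population held the most alpha, beta and gamma V transcripts, while delta transcripts were highest in ILC1 and DN. The 110 alpha segments summed to 49.2, 36.7 and 59.5 CPM in the 3 WT DN libraries. They summed to 14.03, 10.2 and 18.6 CPM in WT ILC1, to 5.26, 2.83 and 4.27 CPM in WT CCR6 and to 0.735, 1.27 and 1.31 CPM in WT NKp46. The 4 populations did not overlap in this sum. Fewer cells carrying receptor transcripts and fewer transcripts per cell cannot be told apart in bulk libraries.

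Beta segments summed to 119.9, 99.6 and 112.6 CPM in WT DN, above every other library. The sums were 37.2, 13.7 and 29.8 CPM in WT ILC1, 30.1, 8.67 and 8.403 CPM in WT CCR6, and 1.41, 2.75 and 3.92 CPM in WT NKp46. WT ILC1 and WT CCR6 overlapped, with replicate 1 of WT CCR6 standing apart from the other 2. WT NKp46 lay below all other WT libraries.

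Gamma segments varied least. They summed to 108.0, 124 and 133 CPM in WT DN, 49.9, 31.4 and 49.6 CPM in WT ILC1, 49.9, 48.5 and 50.3 CPM in WT NKp46 and 34.0, 38.6 and 44.5 CPM in WT CCR6. DN stood clear of the other 3 populations, NKp46 lay above CCR6, and ILC1 overlapped both. Delta segments summed to 142, 60.4 and 111 CPM in WT ILC1 and to 69.5, 73.3 and 94.3 CPM in WT DN, which overlapped. The delta sums were 14.9, 14.7 and 9.30 CPM in WT NKp46 and 6.52, 7.75 and 7.01 CPM in WT CCR6, below every WT ILC1 and WT DN library.

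**Figure D1:**
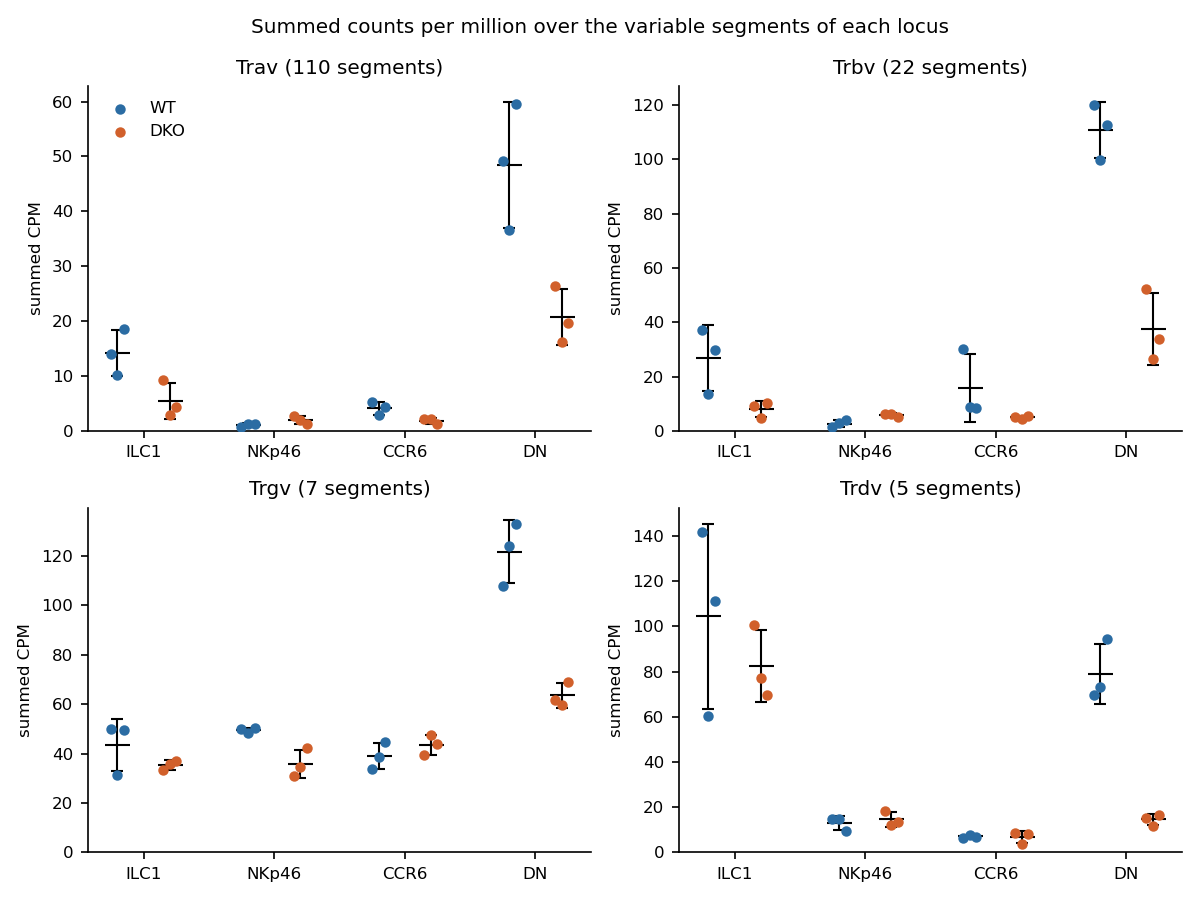
Summed CPM over the V segments of each locus (y axis, linear from 0) in the 4 populations (x axis), with 1 point per library for WT (blue) and DKO (orange) and the mean ± SD in black. The WT DN points lie highest for Trav, Trbv and Trgv, and in the Trdv panel the ILC1 points of both genotypes and the WT DN points lie above the rest.

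The share of segments found grew with these sums. Of all 144 members, 99, 100 and 101 had a count in the 3 WT DN libraries, against 20, 39 and 31 in WT NKp46. Of the 97 alpha segments with a count in any WT library, 76 had their highest WT mean in DN, 16 in ILC1 and 5 in CCR6. The corresponding counts were 21 of 22 beta segments in DN and 1 in ILC1, 5 of 7 gamma segments in DN with 1 each in ILC1 and NKp46, and 2 of 5 delta segments in DN with 3 in ILC1.

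Per kb of exon, Trdv4 held 83.7%, 72.8% and 82.4% of the delta level in WT ILC1 and 85.7%, 86.0% and 90.5% in WT DN. Its level was 121, 45.4 and 93.6 CPM in WT ILC1, 60.5, 63.8 and 86.3 CPM in WT DN, 13.8, 12.9 and 8.10 CPM in WT NKp46 and 2.72, 4.38 and 2.57 CPM in WT CCR6. ILC1 and DN overlapped and formed the high pair, NKp46 lay below both, and CCR6 lay lowest without overlap. On the log2 scale ILC1 exceeded NKp46 by 2.90 ± 0.36 (SE, adjusted p = 7.7e-06) and CCR6 by 4.74 ± 0.39 (adjusted p = 6.5e-09). DN exceeded NKp46 by 2.60 ± 0.35 (adjusted p = 1e-04) and CCR6 by 4.44 ± 0.38 (adjusted p = 7.1e-08), and CCR6 against NKp46 gave -1.84 ± 0.35 (adjusted p = 0.0013). DN against ILC1 differed by -0.30 ± 0.33 (adjusted p = 0.65). The 5 differences past the threshold kept their calls without any single library, replicate 2 of WT ILC1 included.

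Trdv2-2 was highest in ILC1. It measured 20.3, 13.98 and 17.5 CPM in WT ILC1, 5.18, 4.59 and 3.77 CPM in WT DN, 2.24, 1.48 and 2.46 CPM in WT CCR6 and 1.01, 1.68 and 1.14 CPM in WT NKp46. Unlike Trdv4, it separated ILC1 from DN with no overlap, while CCR6 and NKp46 overlapped. ILC1 exceeded NKp46 by a log2 difference of 3.75 ± 0.47 (adjusted p = 9.1e-06) and CCR6 by 3.07 ± 0.45 (adjusted p = 2.9e-05), and DN lay below ILC1 at -1.94 ± 0.43 (adjusted p = 0.0058). The DN difference from NKp46, 1.81 ± 0.44 (adjusted p = 0.021), was lost without WT NKp46 replicate 1 or 3 or WT DN replicate 1 or 2, at an adjusted p of up to 0.12. Trdv2-1, its near copy, had its highest level, 1.04 CPM, in replicate 2 of WT ILC1.

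The other delta segments were rare. Trdv1 measured 1.54, 1.13 and 1.88 CPM in WT DN and had no count in WT NKp46, so DN was at least 56.4-fold higher by a floor of 3 counts over the group. Its adjusted p of 0.018 rose to as much as 0.097 without any 1 of the NKp46 libraries. Trdv5 read 2.25, 3.68 and 2.37 CPM in WT DN, 1.04, 1.61 and 1.43 CPM in WT CCR6 and 0 in all 3 WT ILC1 libraries. This order is not that of Trdv4. DN was at least 76.1-fold above ILC1 in Trdv5 (adjusted p = 0.0013). Trdc, on the opposite strand of Trdv5, measured 242, 257 and 325 CPM in WT DN and 8.33, 13.7 and 14.6 CPM in WT NKp46. Per kb of exon its mean was 10.0 CPM in WT ILC1 and 9.29 CPM in WT CCR6, 2 populations that differed in Trdv5. The part of Trdc in the Trdv5 counts was not tested.

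The gamma segments differed in which population held their highest level. Trgv5 measured 34.5, 32.6 and 30.1 CPM in WT NKp46, 23.1, 25.7 and 32.6 CPM in WT DN, 21.7, 20.1 and 22.7 CPM in WT CCR6 and 13.8, 7.79 and 13.4 CPM in WT ILC1. ILC1 lay below the other 3 populations without overlap. The log2 difference of ILC1 from NKp46 was -1.46 ± 0.24 (adjusted p = 0.00021). Against CCR6 it was -0.87 ± 0.23 (adjusted p = 0.01), and 0.055 without WT ILC1 replicate 2. DN exceeded ILC1 by 1.21 ± 0.23 (adjusted p = 0.0018, and 0.13 in a fit of these 2 groups alone). DN did not differ from NKp46 beyond the spread (-0.26 ± 0.23, adjusted p = 0.73).

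Trgv1 was high in ILC1 and DN alike. It measured 20.4, 16.6 and 23.0 CPM in WT ILC1, 18.2, 21.5 and 19.2 CPM in WT DN, 7.75, 5.94 and 10.1 CPM in WT NKp46 and 3.13, 3.44 and 4.41 CPM in WT CCR6. The order matched that of Trdv4, with ILC1 and DN overlapping, NKp46 next and CCR6 lowest. DN against ILC1 gave -0.03 ± 0.23 on the log2 scale (adjusted p = 0.97). DN exceeded CCR6 by 2.42 ± 0.24 (adjusted p = 5.3e-07) and NKp46 by 1.31 ± 0.23 (adjusted p = 0.0019), and ILC1 exceeded CCR6 by 2.45 ± 0.24 (adjusted p = 1.1e-07).

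Trgv2, close in sequence to Trgv1, followed another order. It measured 30.0, 37.8 and 30.3 CPM in WT DN, 10.4, 4.58 and 5.54 CPM in WT ILC1, 4.60, 6.31 and 7.33 CPM in WT CCR6 and 0.0306, 1.83 and 0.914 CPM in WT NKp46. DN stood alone at the top, ILC1 and CCR6 overlapped, and NKp46 lay lowest. DN exceeded NKp46 by a log2 difference of 5.11 ± 0.76 (adjusted p = 3e-04) in every alternative run. Its differences from ILC1 (2.25 ± 0.66, adjusted p = 0.04) and CCR6 (2.43 ± 0.67, adjusted p = 0.031) were lost in 5 of the 6 fits and in 6 of the 7 fits that left out 1 library, with adjusted p up to 0.11 and 0.13.

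Trgv6 and Trgv4 were DN segments within the WT. Trgv6 measured 17.0, 14.9 and 30.8 CPM in WT DN, 1.16, 0 and 0.229 CPM in WT ILC1, 1.10, 0.719 and 2.22 CPM in WT NKp46 and 0.114, 1.09 and 1.82 CPM in WT CCR6. Every DN library lay above every other WT library. DN exceeded ILC1 by a log2 difference of 5.39 ± 1.26 (adjusted p = 0.0086). The difference from CCR6, 4.36 ± 1.18 (adjusted p = 0.028), was lost without any 1 of the 6 libraries compared (adjusted p up to 0.12), and that from NKp46, 3.96 ± 1.16, did not pass (adjusted p = 0.075).

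Trgv4 measured 14.6, 20.3 and 16.2 CPM in WT DN, 5.60, 6.45 and 5.26 CPM in WT NKp46, 3.89, 7.13 and 7.32 CPM in WT CCR6 and 2.03, 1.93 and 5.18 CPM in WT ILC1. DN was again clear of the rest, by 2.46 ± 0.38 on the log2 scale against ILC1 (adjusted p = 0.00016). Trgv7, the segment of intraepithelial cells, measured 3.87, 1.72 and 2.30 CPM in WT DN and at most 1.58 CPM in the other WT libraries, and it passed no test among WT populations. Trgv3 did not exceed 2.21 CPM in any library and passed none either.

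Per base of exon, the share of Trgv5 in the gamma level set NKp46 and CCR6 against ILC1 and DN. Trgv5 held 72.2%, 71.1% and 63.2% of the gamma CPM per kb in WT NKp46 and 69.1%, 57.8% and 56.8% in WT CCR6. It held 31.3%, 27.7% and 30.1% in WT ILC1, where Trgv1 was larger at 42.1%, 53.9% and 46.9%. In WT DN the gamma locus was spread over more segments. There Trgv5 held 25.5%, 24.8% and 28.9%, Trgv2 23.0%, 25.3% and 18.7%, and Trgv6 15.1%, 11.6% and 22.0%. The effective number of segments, the inverse of the summed squared shares, was 5.20, 4.99 and 4.88 in WT DN. It was 3.28, 2.61 and 3.05 in WT ILC1, 1.98, 2.59 and 2.69 in WT CCR6 and 1.81, 1.87 and 2.24 in WT NKp46. By this measure ILC1 overlapped CCR6 and lay below DN.

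**Figure D2:**
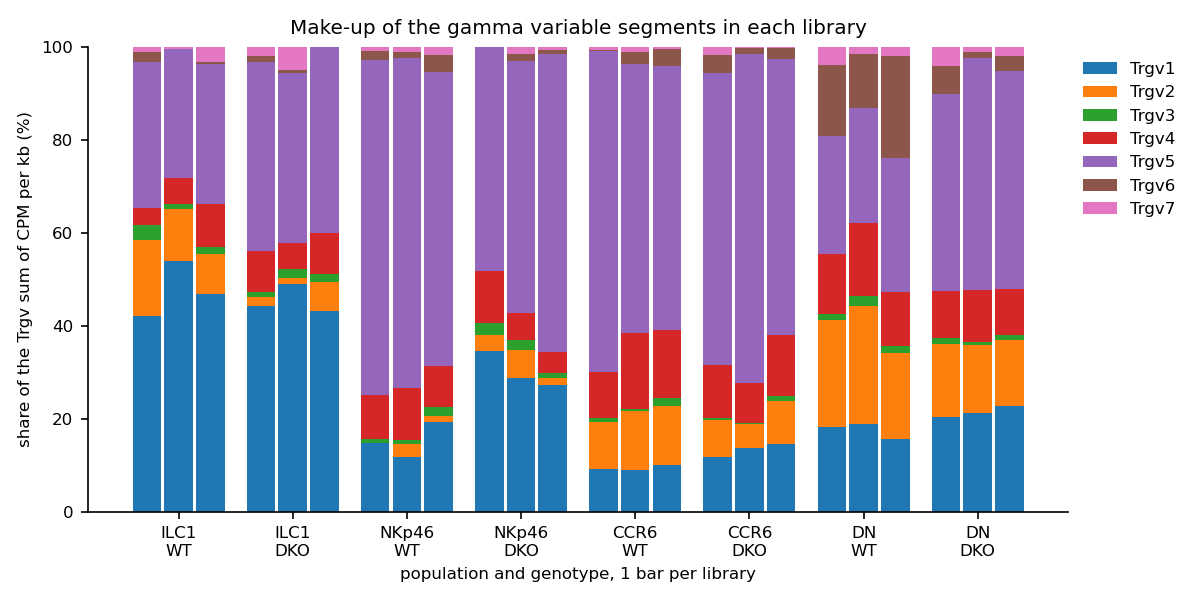
Share of the gamma CPM per kb held by each of the 7 Trgv segments (y axis, percent), with 1 stacked bar per library grouped by population and genotype. Trgv5 takes the largest part of each WT NKp46 and WT CCR6 bar, and the Trgv6 share is visible in WT DN bars at 11.6% to 22.0% and shrinks to between 1.18% and 5.97% in DKO DN.

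The beta segments gave the most uniform picture. Trbv13-2 held 19.4%, 24.5% and 20.1% of the beta CPM per kb in WT DN. It measured 20.96, 21.9 and 20.2 CPM in WT DN, 5.74, 0 and 6.81 CPM in WT ILC1, 6.71, 1.84 and 1.57 CPM in WT CCR6 and 0.123, 0.267 and 1.18 CPM in WT NKp46. DN lay above all other libraries, and ILC1 replicate 2 had no count. DN exceeded NKp46 by 5.35 ± 1.02 on the log2 scale (adjusted p = 0.0036). Trbv12-2 measured 11.0, 9.91 and 7.07 CPM in WT DN and 0, 0.247 and 0.0653 CPM in WT NKp46, a log2 difference of 6.35 ± 1.05 (adjusted p = 9e-04). It measured 6.29, 0.241 and 3.73 CPM in WT ILC1, where replicate 2 overlapped NKp46, and the fitted difference from NKp46 was 4.92 ± 1.00 (adjusted p = 0.0021). Both calls held without any single library.

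Trbv20 measured 3.52, 2.40 and 4.39 CPM in WT DN and had no count in WT NKp46, an at least 128-fold difference. Its adjusted p of 0.048 was lost without any 1 of the 6 libraries compared, at up to 0.19. Trbv16 was the 1 beta segment with its highest WT mean in ILC1. It measured 5.26, 2.89 and 4.37 CPM there, 3.56, 5.32 and 3.41 CPM in WT DN, which overlapped, and 0, 0.247 and 0 CPM in WT NKp46. ILC1 exceeded NKp46 by 5.48 on the log2 scale (adjusted p = 0.0054) in all fits but that of these 2 groups alone. Trbv12-1 had 4.84, 1.61 and 0.915 CPM in WT ILC1 and 2.51, 2.09 and 3.90 CPM in WT DN, with 2 counts in all of WT NKp46. Trbv19 separated DN from ILC1, with 8.03, 5.62 and 9.70 CPM in DN and 0.516, 0 and 0.0254 CPM in ILC1. That call (adjusted p = 0.029) was lost in 5 of the 6 fits that left out 1 library, at up to 0.083.

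**Figure D3:**
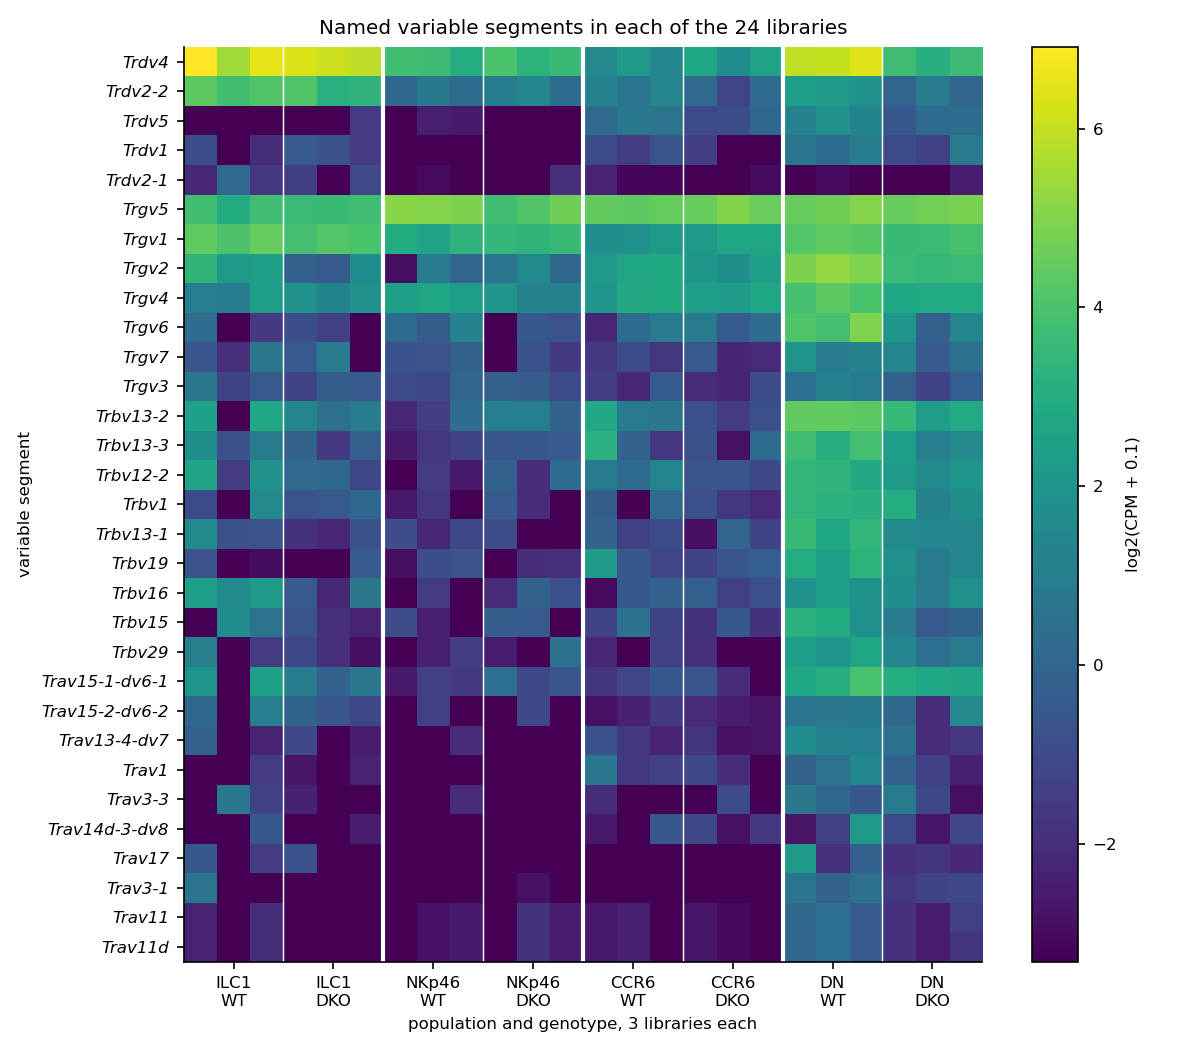
Level of each named V segment (rows, ordered by locus and mean level) in each of the 24 libraries (columns, 3 per population and genotype), as log2 of CPM plus a small constant. Most gamma, beta and alpha rows have their highest WT mean in the DN columns. Trgv5 is highest in WT NKp46, and some alpha rows, such as Trav17 and Trav14d-3-dv8, are dim in single WT DN libraries. The Trdv2-2 row is brightest in ILC1 of both genotypes, and the Trdv4 row is bright in ILC1 of both genotypes and in WT DN.

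Alpha transcripts were spread thinly over many segments. The exception was Trav15-1-dv6-1, a segment that can join to alpha or delta, with 6.52, 8.73 and 15.7 CPM in WT DN, 3.81, 0 and 5.39 CPM in WT ILC1, 0.190, 0.341 and 0.601 CPM in WT CCR6 and 0.0613, 0.288 and 0.229 CPM in WT NKp46. DN was above all other WT libraries, and ILC1 was high in all but replicate 2. DN exceeded NKp46 by 5.70 ± 1.18 on the log2 scale (adjusted p = 0.0068, and 0.052 without WT NKp46 replicate 1) and CCR6 by 4.75 (adjusted p = 0.01, up to 0.065 without WT CCR6 replicate 1 or 2). This segment held 12.9%, 22.9% and 26.1% of the alpha CPM per kb in WT DN. Over the V exon it was 95.05% identical to its copies Trav15d-1-dv6d-1 and Trav15n-1, which limits how well short reads separate them.

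Other alpha segments were high in single libraries. Trav17 measured 4.56, 0.172 and 0.774 CPM in WT DN, and Trav14d-3-dv8 measured 0.0445, 0.294 and 4.59 CPM there. Replicates 1 and 3 of WT DN thus each carried 1 alpha segment far above its level in the other 2. Trav17 had no count in WT CCR6, and the adjusted p of 0.039 for that comparison reached 0.16 with 1 library left out. Trav3-1 (1.47, 0.834 and 1.29 CPM in WT DN) and Trav13-1 (2.51, 1.64 and 0.310 CPM) also had none in WT CCR6, with adjusted p of 0.031 and 0.026 that rose to as much as 0.12 and 0.10 with 1 library left out.

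The alpha V segments of the invariant receptors, Trav11 and Trav1, were low everywhere. Trav11 measured 0.957, 1.25 and 0.645 CPM in WT DN and at most 0.179 CPM in the libraries of the other populations, both genotypes included. It has no window that separates it from its copy Trav11d. Traj18, its partner in the invariant receptor, measured 3.47, 2.43 and 2.97 CPM in WT DN and 0.806, 0.723 and 0.711 CPM in WT ILC1. Trav1 measured 0.845, 1.40 and 2.68 CPM in WT DN, 1.501, 0.212 and 0.307 CPM in WT CCR6 and 0 in WT NKp46. The DN difference from NKp46 in Trav1 was at least 59.7-fold, and its adjusted p of 0.031 was lost without any 1 of the 6 libraries compared, at up to 0.14. DN was thus the group with the highest level of both segments, and no joined transcript can be read from these counts.

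Counted over all tested segments by edgeR's quasi-likelihood test at an adjusted p under 0.05, WT DN exceeded WT NKp46 in 17 segments and fell below it in 0. Of all 21286 tested genes, 2.97% differed in either direction at this threshold. An unadjusted p under 0.05 was found for 57 segments, and the share of all genes at that threshold is not given. The 17 were 8 beta, 4 delta, 3 gamma and 2 alpha segments. Of all 144 members, 73 had every DN library above every NKp46 library and 0 the reverse, against 2913 and 2393 of the 55487 genes of the table, and 12.7% and 10.2% of tested genes. DN exceeded CCR6 in 11 segments and fell below it in 0 (5.84% of tested genes either way), and DN exceeded ILC1 in 6 and fell below it in 1, Trdv2-2 (7.61%). ILC1 exceeded NKp46 in 9 segments and fell below it in Trgv5 (10.7% of tested genes). CCR6 exceeded NKp46 in 6 and fell below it in 2, Trdv4 and Trgv1 (6.23%). ILC1 exceeded CCR6 in 9 and fell below it in 2, Trdv5 and Trgv5, where 19.3% of tested genes differed, a share above that of the members.

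Between genotypes, V transcripts of every locus read lower in DKO DN than in WT DN, and 2 of the 77 tested segments passed the test. These were the delta segments Trdv4 and Trdv2-2, and 0 segments passed in the higher direction. Of all tested genes, 2.83% were called in either direction and 1.34% in the lower one. The share of tested segments called was thus close to that of all genes in either direction. Over all 144 members, 49 had every DKO DN library below every WT DN library and 1 had the reverse, against 2977 and 2544 of the 55487 genes of the table. Among tested genes 12.8% lay entirely lower and 11.2% entirely higher. The group mean was lower in the DKO for 106 members, higher for 27 and 0 in both for 11. The corresponding counts over all 55487 genes were 18009, 15950 and 21528. The 49 were 23 alpha, 18 beta, 5 gamma and 3 delta segments.

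Trdv4 had the clearest difference. It measured 60.5, 63.8 and 86.3 CPM in WT DN and 13.3, 8.76 and 12.7 CPM in DKO DN, with no overlap. The log2 difference was -2.60 ± 0.35 (adjusted p = 6.3e-05), and it kept its call in every alternative, with values from -2.70 to -2.42. In the other populations Trdv4 overlapped between genotypes. DKO ILC1 libraries measured 81.7, 67.8 and 59.0 CPM, a difference of -0.32 ± 0.33 (adjusted p = 0.72) from WT ILC1. DKO NKp46 libraries measured 16.3, 9.67 and 12.0 CPM, a difference of 0.12 ± 0.34 (adjusted p = 0.92). DKO CCR6 libraries measured 7.03, 2.97 and 5.93 CPM, a difference of 0.72 ± 0.34 (adjusted p = 0.37), and Trdv4 held 78.8%, 78.0% and 72.2% of the delta level per kb there against 39.1%, 54.5% and 34.3% in WT CCR6. The genotype effect on Trdv4 differed among the 4 populations (edgeR F test of the interaction, adjusted p = 0.0021). Trdv4 was the only 1 of the 77 tested V segments called at this threshold. Of all tested genes 1.37% were called, a share close to that of the segments. Other settings called between 1 and 5 segments.

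Trdv2-2 measured 5.18, 4.59 and 3.77 CPM in WT DN and 0.925, 1.74 and 0.935 CPM in DKO DN, a log2 difference of -1.91 ± 0.44 (adjusted p = 0.013). The groups did not overlap, but the call was lost without WT DN replicate 1 or DKO DN replicate 1 or 3, at an adjusted p of up to 0.10. In ILC1, where Trdv2-2 was highest, DKO libraries measured 17.7, 8.96 and 9.89 CPM against 20.3, 13.98 and 17.5 CPM in the WT, which overlapped (-0.50 ± 0.42, adjusted p = 0.64). Trdv1 read 0.397, 0.294 and 1.77 CPM in DKO DN, of which replicate 3 fell within the WT range.

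The gamma segments of DN did not move as a block. Trgv5 measured 23.1, 26.7 and 29.0 CPM in DKO DN beside 23.1, 25.7 and 32.6 CPM in WT DN, a difference of -0.05 ± 0.23 on the log2 scale (adjusted p = 0.98). Trgv6, next to it on the chromosome, measured 4.05, 0.785 and 2.52 CPM beside 17.0, 14.9 and 30.8 CPM. All 3 DKO values lay below all 3 WT values, but the difference of -3.09 ± 1.11 did not pass (adjusted p = 0.19). Trgv4 fell short of the threshold as well, at 6.85, 7.51 and 7.598 CPM in the DKO (-1.22 ± 0.36, adjusted p = 0.085). Trgv2, at 12.3, 11.3 and 12.6 CPM in DKO DN, gave -1.44 ± 0.64 (adjusted p = 0.35), and Trgv1, at 12.2, 12.4 and 15.4 CPM, gave -0.56 ± 0.23 (adjusted p = 0.29). These 3 segments did not overlap between genotypes either.

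As shares of the gamma CPM per kb, Trgv5 held 42.3%, 50.0% and 46.9% in DKO DN against 25.5%, 24.8% and 28.9% in WT DN, and Trgv6 held 5.97%, 1.18% and 3.29% against 15.1%, 11.6% and 22.0%. The effective number of gamma segments was 3.83, 3.04 and 3.30 in DKO DN against 5.20, 4.99 and 4.88. None of these shares overlapped between the genotypes. Shares within a locus are tied to each other, and the Trgv5 level in CPM overlapped between the genotypes.

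All 22 beta segments had a lower mean in DKO DN, 18 of them without overlap, and none passed the test. The beta sum was 52.4, 26.6 and 33.9 CPM in DKO DN against 119.9, 99.6 and 112.6 CPM in WT DN. Trbv13-2 measured 11.6, 5.13 and 7.46 CPM in DKO DN (-1.38 ± 0.85, adjusted p = 0.59), Trbv13-1 measured 2.89, 2.62 and 2.42 CPM against 12.3, 6.55 and 10.9 CPM (-1.91 ± 1.01, adjusted p = 0.49), and Trbv15 measured 1.83, 0.638 and 0.876 CPM against 9.28, 7.78 and 3.43 CPM (-2.61 ± 1.28, adjusted p = 0.42). Trbv16, at 3.02, 1.84 and 3.44 CPM, was among the segments that overlapped. The share of Trbv13-2 in the beta CPM per kb was 24.8%, 21.9% and 24.6% in DKO DN and 19.4%, 24.5% and 20.1% in WT DN, which overlapped. Fitted on the 2 DN groups alone, 15 V segments passed, all lower in the DKO, and with limma voom 11 passed. The share of all genes called in these 2 fits is not given, so the counts cannot be set against a background.

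Alpha segments summed to 26.3, 16.3 and 19.7 CPM in DKO DN against 49.2, 36.7 and 59.5 CPM in WT DN, without overlap, and 55, 52 and 63 of them had a count beside 67, 66 and 69. Trav15-1-dv6-1 measured 7.98, 6.77 and 6.23 CPM in DKO DN, which overlapped the WT libraries (-0.56 ± 0.94, adjusted p = 0.92). Its share of the alpha CPM per kb was 29.8%, 41.2% and 30.9% in DKO DN. Trav11 measured 0.176, 0.0736 and 0.282 CPM in DKO DN, below all WT DN libraries, and Trav1 measured 0.837, 0.294 and 0.0890 CPM, below them by a narrow margin. Neither passed the test.

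**Figure D4:**
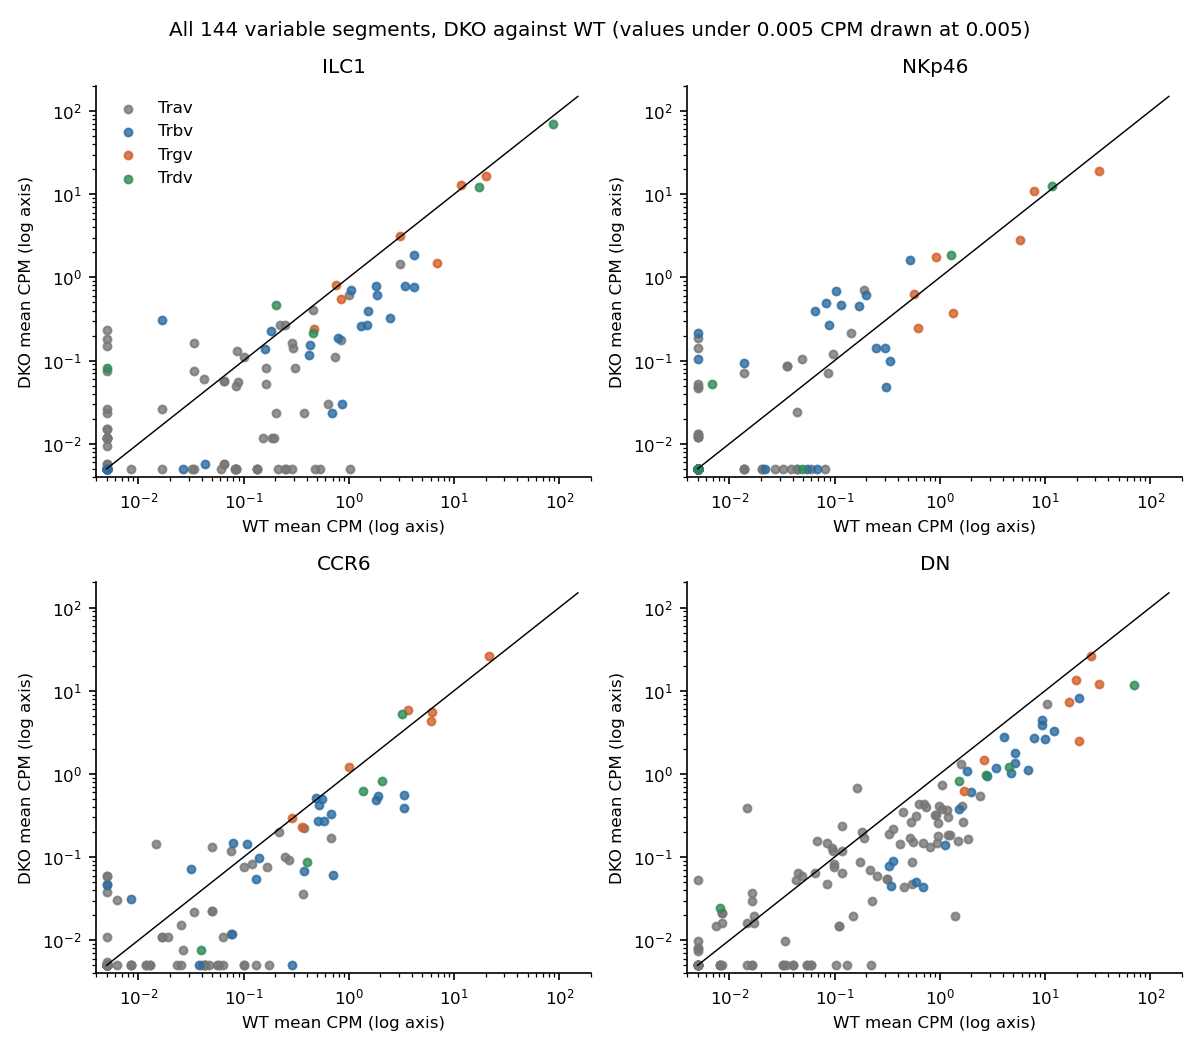
Mean CPM of each of the 144 V segments in DKO (y axis) against WT (x axis), both on log axes, with 1 panel per population, points coloured by locus and the line of equal means in black. In DN most points lie below the line, with Trgv5 on it. More segments also have a lower than a higher DKO mean in ILC1 (67 against 31) and CCR6 (69 against 21), but not in NKp46 (26 against 34). In these 3 populations the most abundant gamma and delta points lie near the line.

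In the other populations, no V segment was called between genotypes. The percentages that follow are of adjusted calls by edgeR. They are no background for the counts at an unadjusted p or in other fits, for which the share of all genes is not given. In ILC1 1.06% of tested genes were called, and 16 V segments had an unadjusted p under 0.05, 1 passed with DESeq2 and 0 with limma voom. In NKp46 4.16% of tested genes were called, and 8 V segments had an unadjusted p under 0.05, 3 passed with DESeq2 and 1 with limma voom. In CCR6 3.97% of tested genes were called, and 11 V segments had an unadjusted p under 0.05, 3 passed with DESeq2 and 1 with limma voom. The alpha sum was 9.24, 2.94 and 4.34 CPM in DKO ILC1 against 14.03, 10.2 and 18.6 CPM in WT ILC1, below it without overlap. The beta sum was 9.29, 4.62 and 10.1 CPM there against 37.2, 13.7 and 29.8 CPM, also without overlap, with or without the shallow replicate 2 of WT ILC1, which was the lowest of its group in both sums. In NKp46 both sums went the other way in the means, to 2.03 ± 0.764 CPM for Trav from 1.10 ± 0.321 and to 5.84 CPM for Trbv from 2.69, and only the beta libraries were clear of each other. In CCR6 the alpha sum was 2.12, 2.22 and 1.21 CPM in the DKO against 5.26, 2.83 and 4.27 CPM in the WT. The beta sum there was 5.04, 4.54 and 5.45 CPM against 30.1, 8.67 and 8.403 CPM. Both CCR6 sums lay lower in the DKO without overlap.

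Among single segments, Trgv5 in NKp46 measured 13.8, 17.5 and 25.8 CPM in the DKO against 34.5, 32.6 and 30.1 CPM in the WT (-0.77 ± 0.23, adjusted p = 0.066). All DKO libraries lay below all WT libraries. In ILC1 the group mean was lower in the DKO for 67 of the 144 members and higher for 31, against 16586 and 16975 of the 55487 genes. In NKp46 it was lower for 26 and higher for 34, against 17137 and 15822 genes. In CCR6 the group mean was lower in the DKO for 69 of the 144 members, higher for 21 and 0 in both for 54. Of all genes it was lower there for 18329 and higher for 17025. Without overlap, 5 members lay lower and 2 higher, against 3131 and 2712 of the 55487 genes of the table. The shares of the members were below those of all genes. Trbv13-2 there measured 0.461, 0.252 and 0.458 CPM in the DKO against 6.71, 1.84 and 1.57 CPM in the WT (-3.10 ± 0.93, adjusted p = 0.07). Trdv2-2 there measured 1.02, 0.342 and 1.10 CPM against 2.24, 1.48 and 2.46 CPM (-1.33 ± 0.43, adjusted p = 0.11). Trgv1 in CCR6 lay higher in the DKO, at 4.69, 6.70 and 6.34 CPM against 3.13, 3.44 and 4.41 CPM (0.69 ± 0.23, adjusted p = 0.12). Trgv2 in ILC1 measured 0.808, 0.644 and 3.01 CPM in the DKO against 10.4, 4.58 and 5.54 CPM (-2.17 ± 0.68, adjusted p = 0.15). None of these 4 overlapped between genotypes.

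V segments were then set against the constant gene of their chain, both as CPM per kb of exon, since a joined transcript carries both. Trdc has 3865 bases of exon in the annotation, against 650 to 985 in the other constant genes, and its ratios rest on that length. In CPM, Trdc exceeded Trdv4 in every WT DN library. Trdv4 exceeded the delta constant gene Trdc 32.2, 12.1 and 16.01 times in WT ILC1 and 14.5, 8.19 and 4.82 times in WT NKp46, but only 2.18, 2.16 and 2.31 times in WT DN, and its ratio was 0.793, 1.01 and 0.557 in WT CCR6. The high Trdv4 levels of ILC1 and DN thus stood beside different levels of Trdc, with mean CPM per kb of 10.0 in WT ILC1 and 71.0 in WT DN. The ratio in DKO DN was 1.70, 1.07 and 1.25, below WT DN without overlap. Trdc itself fell in DKO DN, from 242, 257 and 325 CPM to 67.8, 71.2 and 89.1 CPM (log2 difference -1.85 ± 0.25, adjusted p = 6.3e-05).

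For the beta chain the V to constant ratio set DN apart. It was 0.186, 0.157 and 0.168 in WT DN, 0.0619, 0.0289 and 0.0595 in WT ILC1, 0.0886, 0.0281 and 0.0299 in WT CCR6 and 0.00388, 0.00729 and 0.0100 in WT NKp46. Trbc1 and Trbc2 together averaged 1712 CPM per kb in WT DN and 971 in WT NKp46, so most of the difference in the ratio lay in the V segments. In DKO DN the ratio was 0.114, 0.0600 and 0.0745. It was 0.0194, 0.0106 and 0.0225 in DKO ILC1 and 0.0167, 0.0159 and 0.0206 in DKO CCR6. In these 3 populations the DKO lay below the WT without overlap. In DKO NKp46 the ratio was 0.0176, 0.0184 and 0.0156, above the WT without overlap. For the alpha chain the ratio of Trav to Trac was 0.505, 0.417 and 0.641 in WT DN and 0.673, 0.680 and 0.671 in DKO DN, where both had fallen. Trac fell from 237, 216 and 222 CPM to 93.8, 57.1 and 71.1 CPM (log2 difference -1.60 ± 0.30, adjusted p = 0.0024). The alpha ratio went the other way in ILC1, at 0.363, 0.282 and 0.531 in the WT and 0.245, 0.0903 and 0.144 in the DKO, without overlap. Its mean was also lower in the DKO in NKp46 (0.223 against 0.315) and CCR6 (0.316 against 0.573), where the libraries overlapped.

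In the gamma 1 cluster, Trgv4 to Trgv7 lie upstream of Trgc1, and their ratio to it was lower in the DKO in all 4 populations, with no overlap in any. It was 0.125, 0.137 and 0.146 in WT ILC1 against 0.0697, 0.0704 and 0.0756 in DKO ILC1. In NKp46 it was 0.141, 0.131 and 0.124 against 0.0387, 0.04996 and 0.0867. In CCR6 it was 0.156, 0.1695 and 0.172 against 0.0732, 0.111 and 0.0915, and in DN 0.166, 0.162 and 0.198 against 0.0754, 0.0820 and 0.0913. With 3 libraries against 3, an exact permutation test of a single ratio cannot go below a two-sided p of 0.1. Trgc1 rose in DKO ILC1 (log2 difference 1.01 ± 0.17, adjusted p = 0.0017) and DKO CCR6 (1.08 ± 0.17, adjusted p = 0.00026), and measured 0.41 ± 0.17 in NKp46 (adjusted p = 0.20) and 0.33 ± 0.17 in DN (adjusted p = 0.44).

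**Figure D5:**
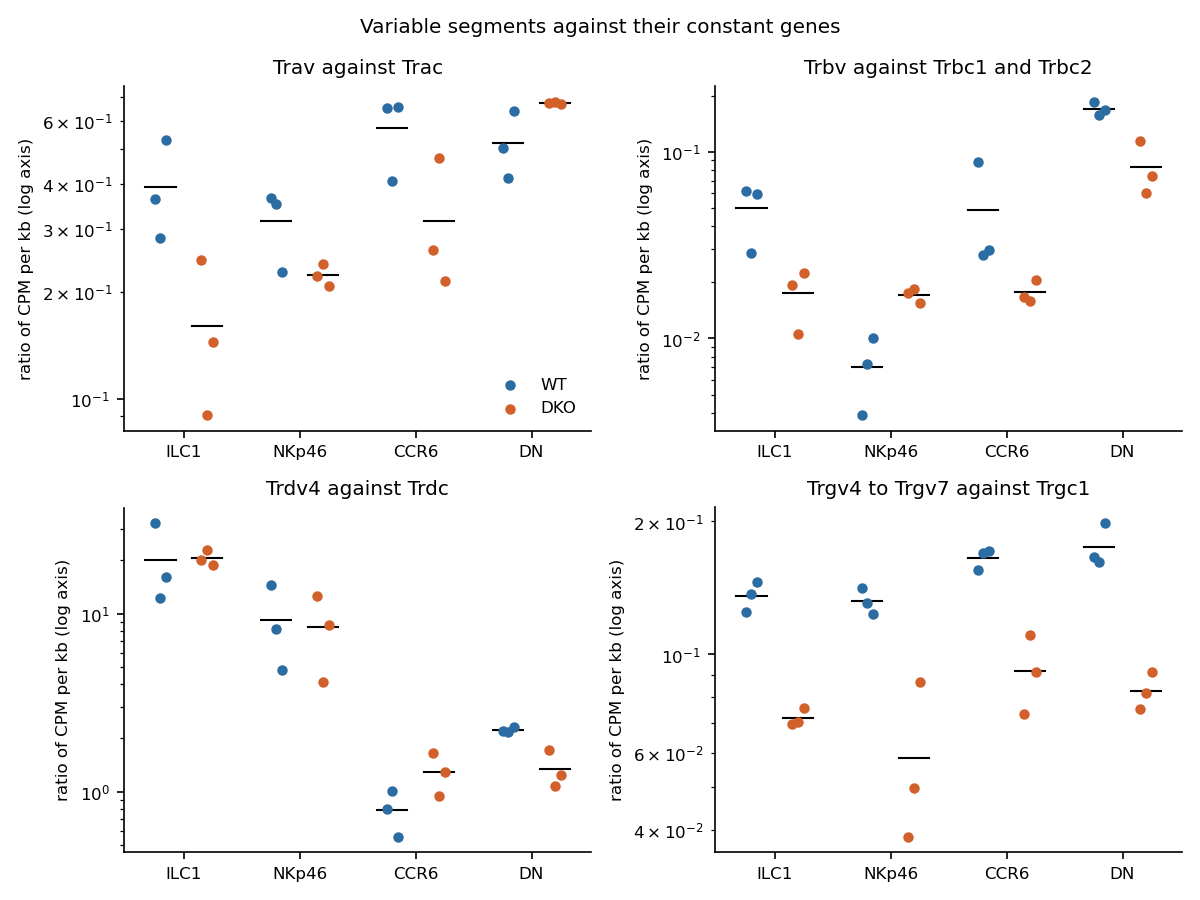
Ratio of V segments to their constant gene, in CPM per kb (y axis, log), for 4 pairs in the 4 populations (x axis), with 1 point per library for WT (blue) and DKO (orange) and the mean as a black line. The Trdv4 to Trdc ratio is highest in ILC1, the Trbv ratio is highest in DN, and the ratio of Trgv4 to Trgv7 against Trgc1 is lower in the DKO in every population.

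Other genes of the receptor followed the V segments in DN. Of a list of 15 T cell receptor complex and constant genes, 12 were higher and 0 lower in WT DN than in WT NKp46, and in DKO DN 8 were lower and 0 higher than in WT DN (Cd247, Cd3d, Cd3e, Cd3g, Trac, Trbc1, Trbc2 and Trdc). Cd3e, a signalling chain of the receptor, measured 591, 558 and 574 CPM in WT DN, 194, 148 and 201 CPM in DKO DN (log2 difference -1.67 ± 0.32, adjusted p = 0.0028) and between 10.2 and 15.1 CPM in WT NKp46. Of 9 measured genes of gamma delta and innate-like T cells, 4 fell in DKO DN (5830411N06Rik, Blk, Cd163l1 and Sox13) and 0 rose. Their summed level ranged from 882 to 1111 CPM in WT DN and from 554 to 645 CPM in DKO DN. Sox13, a transcription factor of gamma delta T cells, measured 24.6, 19.8 and 26.8 CPM in WT DN and 1.45, 0.589 and 1.34 CPM in DKO DN.

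Of 12 conventional T cell genes, 1 rose in DKO DN (Tcf7) and 2 fell (Ctla4 and Thy1), with summed levels of 1528 to 1706 CPM in WT DN and 1432 to 1536 CPM in DKO DN. Cd8b1, the beta chain of the CD8 co-receptor, measured 67.9, 41.5 and 38.0 CPM in WT DN and 51.6, 30.3 and 22.1 CPM in DKO DN, and at most 4.37 CPM elsewhere. Of 14 genes of proximal receptor signalling, 2 fell in DKO DN (Fyn and Lck) and 1 rose (Lat). Of 10 tested genes of V(D)J recombination, 1 rose and 0 fell, and Rag2 did not exceed 0.0174 CPM in any library. Lower levels in DKO DN were not confined to the T cell lists. Of 18 genes of innate lymphoid cell identity, 8 were lower and 2 higher in DKO DN than in WT DN. The lists did not all follow the V segments between populations. Of the 14 signalling genes, 2 were higher and 3 lower in WT DN than in WT ILC1, and of the 9 gamma delta and innate-like genes 1 was higher and 0 lower in WT DN than in WT CCR6. The part of T cells in these results was not tested.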

How the data were processed

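RNA from sorted cells (10 ng, RNA integrity number above 8) was amplified with a SMARTer ultra low input kit over 12 to 15 cycles and sequenced on a NovaSeq, per the labels' protocols, and no molecular identifiers are named. The authors deposited raw read counts per gene for all 24 libraries. Per the submitters' processing notes, the build was mm10, and the tools named were featureCounts 2.0.3 with Subread, STAR 2.7.9a, Salmon 1.5.2, R 4.1, bcl2fastq and DESeq2. Strand, annotation release and multimapping rules of the counting are not given in those sources, so counts common to near-identical segments may have been dropped or split.

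The table held 55774 rows. 168 gene IDs stood on 455 rows with the same counts and were kept once each, and none was a V segment, which left 55487 genes. Counts were tested with edgeR 4.0.16 in R 4.3.3 (TMM library sizes, filterByExpr by group, robust quasi-likelihood fit). All 8 groups entered 1 model with 16 residual degrees of freedom, and p-values were adjusted by Benjamini-Hochberg over 21286 genes, with 0.05 as the threshold. The common biological coefficient of variation was 0.573. The fit was checked on data simulated for DKO against WT in DN, with changes placed on genes above 1 CPM. Of changes of 1 and 2 on the log2 scale, edgeR recovered 45% and 72%, with 5 false calls. Limma voom recovered 40% and 72% with 4 false calls, and DESeq2 58% and 82% with 54. Recovery in rarer genes, which include many V segments, was not checked. The log2 differences are given ± SE and levels ± SD, with n = 3 libraries a group. CPM per kb used exon lengths of GENCODE mouse release 21 on GRCm38, in which all 144 members were matched by Ensembl ID. A fold against a group with 0 counts used a floor of 3 counts over the group, which covers counting error only.

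All gamma and delta segments were named, with the 8 alpha and 8 beta segments of the highest mean CPM over all libraries, the segments of invariant receptors, up to 4 called segments each way in a comparison with at least 1 CPM in the higher group, and up to 3 called by genotype. Other segments were named for a count of 5 or fewer or for a copy of a named one. The members and gene lists were chosen with earlier results of these data known. The alternatives were DESeq2 1.42.0 and its size factors, limma 3.58.1 voom, no filter on low counts, only the 2 groups compared, a replicate block and leaving out each library.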

Additional observations from a re-analysis of the deposited data

Results flagged for a closer look

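Trdv4 was singled out because its genotype effect differed among the 4 populations by a test of the difference itself (edgeR F test over 3 contrasts, adjusted p = 0.0021). It was the only 1 of the 77 tested V segments called, where 1.37% of all tested genes were called. The log2 differences of DKO from WT were -2.60 in DN, -0.32 in ILC1, 0.12 in NKp46 and 0.72 in CCR6. All 3 DKO DN libraries lay below all 3 WT DN libraries, and the libraries of the other populations overlapped between genotypes. No explanation for the difference was tested.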

How the results depend on the processing

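Counts of V segments called moved with the model more than with the scaling. Between genotypes, DESeq2 called 1 in ILC1, 3 in NKp46 and 3 in CCR6 where edgeR called 0. Limma voom called 1 in NKp46, 1 in CCR6 and 11 in DN. A fit of only the 2 groups compared called 1 in CCR6 and 15 in DN, against 2 in DN with all groups. Among WT populations, DN against NKp46 (17 called) gave 26 without the filter, 28 with DESeq2, 51 with limma voom and 42 with only the 2 groups. DN against ILC1 (7) gave 28 with limma voom. DN against CCR6 (11) gave 23 with DESeq2, 56 with limma voom and 33 with only the 2 groups. ILC1 against NKp46 (10) gave 16 without the filter, 16 with DESeq2 and 4 with only the 2 groups, and ILC1 against CCR6 (11) gave 4 with only the 2 groups. The test of different genotype effects (1) gave 2 without the filter, 5 with DESeq2 and 3 with limma voom. Shares of all genes called are given for the main fit only, so these counts have no background of their own. The cause was not tested.

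With 1 library left out, the counts ranged from 0 to 1 for genotype in NKp46 and in CCR6, from 1 to 3 for genotype in DN, from 5 to 24 for DN against NKp46, from 5 to 10 for DN against ILC1, from 4 to 17 for DN against CCR6, from 8 to 14 for ILC1 against NKp46, from 3 to 9 for CCR6 against NKp46, from 5 to 10 for ILC1 against CCR6 and from 1 to 4 for the test of different genotype effects. Leaving out WT ILC1 replicate 2 where its group was not compared was added after seeing the data. The calls kept in every alternative were 1 of 2 for genotype in DN (Trdv4), 5 of 17 for DN against NKp46, 4 of 7 for DN against ILC1, 3 of 11 for DN against CCR6, 5 of 10 for ILC1 against NKp46, 1 of 8 for CCR6 against NKp46 and 4 of 11 for ILC1 against CCR6. Over single segments, 635 alternative values kept direction and call, 187 kept the direction and lost the call, and 1 lost its direction. The last was Trav3-1 in ILC1 against CCR6, 7.40 on the log2 scale and 0 without WT ILC1 replicate 1, since both groups then had no count.

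Replicate numbers recur in every group, and deviations of libraries with the same number correlated weakly (from -0.02 to 0.07). Between WT CCR6 and WT NKp46 the values were 0.07, 0.05 and 0.05, above those between different numbers (at most 0.01). For DKO against WT in CCR6 none was higher than between different numbers. Values of this size do not tell whether same-number libraries share an animal, which is not stated. With the replicate number as a block, the counts called were 0, 1, 0 and 2 for genotype in ILC1, NKp46, CCR6 and DN, 18 for DN against NKp46, 6 for DN against ILC1, 11 for DN against CCR6, 9 for ILC1 against NKp46, 5 for CCR6 against NKp46 (8 without it), 7 for ILC1 against CCR6 and 1 for the test of different genotype effects.

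Depth limits the rare segments. In the shallowest library, with 12763228 counts, 10 of the 110 alpha segments had a count, and a missing count there does not show that the transcript was absent. The median log2 difference of all genes lay at -0.11 for ILC1 against CCR6 under TMM scaling and between -0.10 and 0.08 in the other comparisons, so the ILC1 differences stand beside a shift of that size.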
